A study of Mus musculus with 18 samples.

Results

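A group of 46 genes had higher mRNA levels in mouse dendritic cells (DCs) held under a low ceiling than in unconfined DCs of either cPLA_2_ genotype, with no such difference in cells treated with lipopolysaccharide (LPS). The members were chosen by values measured in these same libraries, on the scale of log2(normalized count + 1). Each has a gene symbol, a mean of at least 50 normalized counts in at least 1 group, a difference between the confined and nonconfined group means above 1 in cPLA_2_ WT cells and again in cPLA_2_ KO cells, and a difference under 0.3 between the mean of the 6 LPS libraries and that of the 6 nonconfined libraries. They are 46 of the 12036 genes that have a symbol and reach that level, in a table of 62197 entries. Because these contrasts selected the members, they are given below as values with no test.

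Bone marrow-derived DCs were grown for 10 days with fetal calf serum and supernatant of GM-CSF-producing J558 cells, and polyadenylated RNA was sequenced from 6 groups of 3 libraries each. cPLA_2_ KO cells come from mice in which a floxed *Pla2g4a*, the gene of cytosolic phospholipase A_2_, is deleted by Cre under the *Itgax* (CD11c) promoter, so that the deletion follows CD11c expression; cPLA_2_ WT cells come from littermate or age-matched adult mice on the C57BL/6 background, and either sex was used. Confined cells were held at a height of 3 µm and are labelled 4 hours after confinement, LPS cells received 100 ng/ml for 30 minutes by the labels, were washed and were left until the next day, and nonconfined cells were taken at the end of culture with no treatment. Treatment and time since the end of culture therefore cannot be told apart in any contrast with nonconfined cells. Reads on genes ranged from 33027230 to 61300021 per library, and the libraries of a group are called biological replicates. The study describes its replicates in general as independent in the biological sense, without saying for these libraries whether they are separate cultures or animals, so p-values measure the spread between these libraries.

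The targeted gene was read first. *Pla2g4a* had 697, 686 and 770.4 normalized counts in nonconfined cPLA_2_ WT replicates 1 to 3 and 548, 542 and 533 in nonconfined cPLA_2_ KO, and 1369, 1430.3 and 1321 in confined cPLA_2_ WT against 923, 871 and 919.5 in confined cPLA_2_ KO. It was 1005, 969 and 967 in the libraries labelled LPS cPLA_2_ WT and 1065, 1032 and 1028 in those labelled LPS cPLA_2_ KO. The genotypes did not overlap in nonconfined and confined cells, where *Pla2g4a* was lower by log2 fold changes of -0.41 (SE 0.06, limma adjusted p = 0.00019) and -0.60 (SE 0.06, limma adjusted p = 3.81e-08), while in LPS cells the libraries labelled KO were the higher ones (0.09, SE 0.06, limma adjusted p = 1). A second check used *Ddx3y*, a Y-linked gene. It was at most 3.05 in nonconfined and confined cPLA_2_ WT libraries and 874 to 1036 in the cPLA_2_ KO ones, but 1271, 0 and 662 in the libraries labelled LPS cPLA_2_ WT and 2.12, 1476 and 783 in those labelled LPS cPLA_2_ KO. *Xist*, which is made from the inactive X chromosome of female cells, was present in every library, at 22734 to 33681 in nonconfined and confined cPLA_2_ WT, 12153 to 24835 in nonconfined and confined cPLA_2_ KO and 16450.2 to 30960.2 in LPS libraries. How many donors of which sex went into a library is not given, and in nonconfined and confined cells genotype and the sex makeup of the donors cannot be told apart. *Ddx3y* does not separate the LPS libraries by their labelled genotype, and *Pla2g4a* separates them in the order opposite to the deletion. With the libraries labelled LPS cPLA_2_ WT 2 and cPLA_2_ KO 2 alone, a choice made after seeing the data, 50 genes met the rule, 43 of them among the 46.

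Dendritic cells sample their surroundings as they crawl through narrow spaces, and a squeezed nucleus can unfold its envelope, which recruits cPLA_2_ to the inner nuclear membrane to release arachidonic acid. LPS acts by another route, through Toll-like receptor 4, and turns on NF-κB and interferon programmes as the cells mature. The 46 genes belong to no single pathway, and their products include matrix proteins and proteases, surface receptors, transporters of iron, lipid and sugar phosphates, enzymes of glutathione and amino acid metabolism, and signalling proteins.

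The confined minus nonconfined difference of the members ranged from 1.00 to 5.79 in cPLA_2_ WT (median 1.58) and from 1.00 to 3.12 in cPLA_2_ KO (median 1.45). Among eligible genes, 10.6% passed a difference of 1 in cPLA_2_ WT, 4.72% in cPLA_2_ KO and 3.73% (449 genes) in both, 64.1% had an LPS difference under 0.3, and 0.382% met the whole rule. The 46 members are 10.2% of the 449, and nothing is read from these shares because the rule set them. In all 46, every confined library lay above every nonconfined library of its genotype, as the choice favours. By the same count, 4422 of the 12036 eligible genes did so in cPLA_2_ WT and 3543 in cPLA_2_ KO. The difference was larger in cPLA_2_ WT for 23 members and larger in cPLA_2_ KO for the other 23. Among the 12036 eligible genes it was larger in cPLA_2_ WT for 5521 and in cPLA_2_ KO for 6515. For 33 members the genotypes' differences lay within 0.5 of each other, and so they did for 9071 of the eligible genes. Nothing particular to the members is read from these counts. In these bulk libraries, fewer cells of a type and less RNA per cell cannot be told apart, and the same holds for their opposites.

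**Figure D1:**
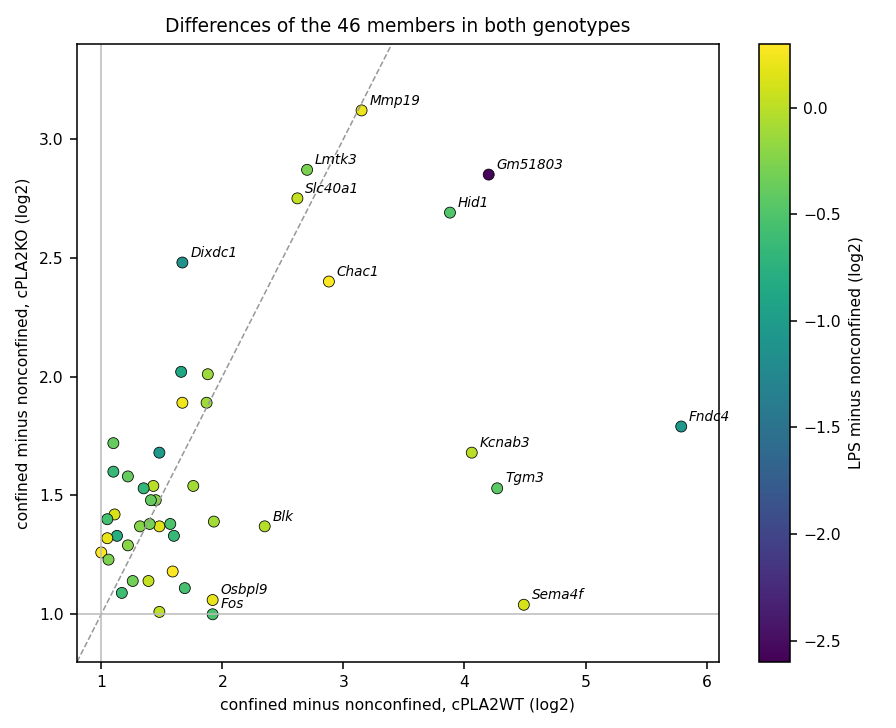
Difference between confined and nonconfined group means in cPLA_2_ KO (vertical axis) against that in cPLA_2_ WT (horizontal axis), both on the log2(normalized count + 1) scale, with 1 point per member and its colour giving the LPS minus nonconfined difference. Most of the 46 points lie near the line of equal differences, and *Fndc4* (5.79 and 1.79), *Sema4f* (4.49 and 1.04), *Tgm3* (4.27 and 1.53) and *Kcnab3* (4.06 and 1.68) lie far below it.

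Secreted matrix proteins and proteases hold the largest member difference shared by both genotypes and the highest level. *Mmp19*, a matrix metalloproteinase that cleaves basement membrane proteins, had 737, 776 and 733 normalized counts in nonconfined cPLA_2_ WT and 671, 780.1 and 747 in nonconfined cPLA_2_ KO, against 6732, 6518 and 6690.1 in confined cPLA_2_ WT and 6519.5, 5885 and 6715 in confined cPLA_2_ KO. The libraries labelled LPS had 895, 842 and 864 (WT) and 864, 791 and 902 (KO). The confined libraries of both genotypes formed 1 high range far from all others, and all 6 LPS libraries lay slightly above the 6 nonconfined ones. These values correspond to differences of 3.15 in cPLA_2_ WT, 3.12 in cPLA_2_ KO and 0.22 for LPS. *Tgfbi*, a secreted TGF-β-induced protein that links collagen to integrins, had 11174, 11144 and 10842 normalized counts in nonconfined cPLA_2_ WT, 10763, 10984 and 11066 in nonconfined cPLA_2_ KO, 26112, 25536 and 25753 in confined cPLA_2_ WT and 28107, 25311 and 27019 in confined cPLA_2_ KO. All 6 LPS libraries, at 8642 to 10392, lay below the nonconfined range. Per kilobase of exon, the scale on which genes can be compared, *Tgfbi* had the highest confined level of the named members (6967 normalized counts per kb), and *Mmp19* had 1838.

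Protease inhibitors and other secreted proteins of the group were less abundant. *Serpinb8*, an intracellular serine protease inhibitor, had 183, 182 and 201 normalized counts in nonconfined cPLA_2_ WT and 531, 477 and 521 after confinement, and 143, 155 and 172 against 448, 443 and 480.3 in cPLA_2_ KO. *Serpinb12*, of the same clade B, was at 22.6 to 30.5 in nonconfined and 49.7 to 79.3 in confined libraries. Of 9 eligible clade B serpins, 3 had both confinement differences above 1 and these 2 were members. *Angptl4*, a secreted inhibitor of lipoprotein lipase, had 73.2, 81.9 and 73.7 normalized counts in nonconfined and 169, 155 and 171 in confined cPLA_2_ WT, and 124, 109 and 71.8 against 316, 325 and 267 in cPLA_2_ KO, so that the confined genotypes did not overlap. *Tgm3*, a transglutaminase that cross-links proteins, was near 0 outside the confined cells (0 to 11.2) and had 86, 67.7 and 79.4 in confined cPLA_2_ WT but 11.9, 27.7 and 12.8 in confined cPLA_2_ KO.

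Surface receptors formed another part of the group. *Clec7a* encodes Dectin-1, the β-glucan receptor by which DCs recognise fungi. It had 2580.1, 2668 and 2534 normalized counts in nonconfined cPLA_2_ WT, 2742, 2708 and 2563 in nonconfined cPLA_2_ KO, 8523, 8084 and 8099.6 in confined cPLA_2_ WT and 9767, 9825 and 10037 in confined cPLA_2_ KO. LPS libraries had 2993 to 3238, all above the nonconfined range and far below the confined one. *Clec7a* lies in a cluster of lectin genes of which 4 were eligible, and the scavenger receptor *Olr1* of that cluster also had both differences above 1 (3.67 and 2.62) but an LPS difference of 3.90, so it is not a member. *Nt5e* encodes CD73, the ectoenzyme that makes adenosine from extracellular AMP, and had 459, 416 and 457 in nonconfined and 1345, 1387 and 1305 in confined cPLA_2_ WT, with 461, 457 and 469 against 1164, 1163 and 1161 in cPLA_2_ KO. Its LPS libraries, at 206 to 385, were all below the nonconfined ones. *Entpd1*, or CD39, which acts before CD73 on extracellular ATP, had confinement differences of 0.94 and 0.29.

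Other receptors differed by less than 2 log2 units. *S1pr1*, the sphingosine-1-phosphate receptor that guides cells towards lymph and blood, had 139, 155 and 118 normalized counts in nonconfined and 340.1, 285 and 302 in confined cPLA_2_ WT, and 109.7, 132 and 115 against 277, 267 and 218 in cPLA_2_ KO. *Tnfrsf12a* (the TWEAK receptor Fn14) had differences of 1.48 (cPLA_2_ WT) and 1.37 (cPLA_2_ KO), and *Tnfrsf26*, another receptor of the TNF superfamily, 1.41 and 1.48. *Klrg2*, a C-type lectin-like protein, had differences of 1.22 and 1.58. *Sema4f*, a transmembrane class 4 semaphorin, stood apart, with 51.8, 56.3 and 64.9 in nonconfined cPLA_2_ WT, 126, 168 and 171 in nonconfined cPLA_2_ KO, 1382, 1279 and 1280.4 in confined cPLA_2_ WT and 286, 358 and 309.8 in confined cPLA_2_ KO. No nonconfined or confined group overlapped another in *Sema4f*: nonconfined cPLA_2_ KO libraries lay above nonconfined cPLA_2_ WT, and confined cPLA_2_ KO far below confined cPLA_2_ WT. The libraries labelled LPS had 115, 93.4 and 87.7 (WT) and 128, 108 and 82.7 (KO), which is 0.76 above nonconfined cPLA_2_ WT and -0.55 from nonconfined cPLA_2_ KO, so that *Sema4f* meets the LPS limit through the mean of both. It is the only member among the 5 eligible class 4 semaphorins.

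Transporters and lipid-binding proteins included *Slc40a1*, or ferroportin, the iron exporter of macrophages and other cells. Nonconfined cPLA_2_ WT libraries had 845, 971 and 987 normalized counts and nonconfined cPLA_2_ KO 1600, 1683 and 1573, while confined cPLA_2_ WT had 5841, 5656 and 5724 and confined cPLA_2_ KO 11266, 10580.2 and 10804. The libraries labelled LPS had 1772, 812 and 1331 (WT) and 829, 1748 and 1503 (KO). The genotypes did not overlap in either state, the confinement differences were close (2.62 and 2.75), and the LPS libraries spread over the whole range of the nonconfined ones. Of 13 eligible genes on a list of metallothioneins and metal handling, 7 had both confinement differences above 1 and *Slc40a1* alone was a member.

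*Slc37a2*, a glucose-6-phosphate exchanger of the endoplasmic reticulum in macrophages, had 991, 956 and 1034 normalized counts in nonconfined and 2057, 1975 and 2132 in confined cPLA_2_ WT, with 941, 1068 and 1044 against 2698, 2486 and 2872 in cPLA_2_ KO. Its LPS libraries had 658 to 717, all below the nonconfined ones. *Osbpl9*, an oxysterol-binding-protein-like lipid transfer protein, had 3064, 3160.2 and 3214 in nonconfined cPLA_2_ WT, 3522, 3615 and 3679 in nonconfined cPLA_2_ KO, 12124, 11837 and 11678 in confined cPLA_2_ WT and 7713, 7332 and 7452 in confined cPLA_2_ KO. None of these 4 groups overlapped, and the genotypes stood in opposite order before and after confinement. *Osbp2*, of the same family, was the other member among 11 eligible oxysterol-binding proteins, at 30.1 to 93.6 in confined and 7.05 to 18.6 in nonconfined libraries. *Lhfpl2*, a tetraspan membrane protein, had 2789.8 to 3054 in nonconfined, 7054 to 8856 in confined and 1628 to 1943 in LPS libraries, 3 ranges without overlap.

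Among metabolic enzymes, *Chac1* breaks down glutathione and is a target of the transcription factors ATF4 and CHOP. It had 140.2, 113 and 126 normalized counts in nonconfined cPLA_2_ WT, 81.5, 119 and 105 in nonconfined cPLA_2_ KO, 1024, 906 and 874 in confined cPLA_2_ WT and 587, 521 and 502 in confined cPLA_2_ KO. The nonconfined genotypes overlapped and the confined ones did not. The LPS libraries had 106 to 161. *Gpt2*, the mitochondrial alanine aminotransferase, had 325, 376 and 325 in nonconfined cPLA_2_ WT, 264, 282 and 274 in nonconfined cPLA_2_ KO, 1274, 1312 and 1336 in confined cPLA_2_ WT and 765, 692 and 697 in confined cPLA_2_ KO, so cPLA_2_ KO was the lower genotype in both states. *Oplah*, which turns the 5-oxoproline released by *Chac1* into glutamate, had 51.1 to 81 in nonconfined and 137 to 213 in confined libraries. These 3 are the members among 17 eligible genes of glutathione and glutamate metabolism, a family drawn up after the members were known, of which 6 had both differences above 1. *Cbr3*, a carbonyl reductase, had 225 to 343 in nonconfined and 593 to 926 in confined libraries.

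Signalling proteins included *Fos*, a subunit of the AP-1 transcription factor and an immediate early gene. It had 1005, 1028 and 976 normalized counts in nonconfined cPLA_2_ WT, 1218, 1206 and 1172 in nonconfined cPLA_2_ KO, 3939.6, 3658 and 3829 in confined cPLA_2_ WT and 2558, 2278 and 2387 in confined cPLA_2_ KO. The LPS libraries, at 661 to 896, were all below the nonconfined ones. As with *Osbpl9*, the cPLA_2_ KO libraries lay above those of cPLA_2_ WT before confinement (log2 fold change 0.26, SE 0.09, limma adjusted p = 0.069) and below them after it. On a list of 26 immediate early genes, all eligible, 7 had both confinement differences above 1, and of these 7 *Fos* alone had an LPS difference under 0.3. *Pde4d*, a phosphodiesterase that breaks down cAMP, had 97.5 to 125 in nonconfined libraries, 322, 299 and 326 in confined cPLA_2_ WT and 222, 232 and 241 in confined cPLA_2_ KO. *Rhov*, an atypical small GTPase, had 242 to 353 in nonconfined libraries and 1002, 1015 and 979.6 (WT) or 1379, 1379.8 and 1178 (KO) in confined ones. Its relatives *Rhou* and *Rnd1* had differences of 2.36 and 5.28 in cPLA_2_ WT but 0.01 each in cPLA_2_ KO.

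Several signalling members had few reads. *Kcnab3*, a subunit of voltage-gated potassium channels, had 97.6, 111 and 91.2 normalized counts in confined cPLA_2_ WT and 19.4, 17.1 and 10.9 in confined cPLA_2_ KO, against 2.56 to 11.8 in nonconfined libraries. Its lowest confined cPLA_2_ KO library lay above the libraries labelled LPS cPLA_2_ KO (2.29 to 9.87) but below the highest of those labelled LPS cPLA_2_ WT (12.8). Set against all 6 LPS libraries, every confined library was higher for all 46 members in cPLA_2_ WT and for the other 45 in cPLA_2_ KO. The rule favours such counts, and nothing is read from them, as the share over all genes is not given here. *Akap6*, a scaffold for protein kinase A, had 49.4 to 93.8 in nonconfined and 167 to 202 in confined libraries. *Dixdc1*, a Wnt pathway protein, had 7.45 to 27.4 against 43.7 to 81.5, and *Dusp13*, an entry that covers a pair of neighbouring phosphatase genes, 10.2 to 31.7 against 40.3 to 120.3. *Lmtk3*, a receptor-type kinase, had 3.72 to 13 against 41.9 to 89.9, and *Blk*, a kinase of the Src family known from B cells, 38.4 to 80.7 against 168 to 239. *Sh2d4b*, *Asb4* and *Ankrd28* complete this set, with confinement differences of 1.48, 1.57 and 1.32 in cPLA_2_ WT and 1.68, 1.38 and 1.37 in cPLA_2_ KO.

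Proteins of trafficking and ubiquitin handling were a smaller set. *Mindy1*, a deubiquitinase that trims long ubiquitin chains, had 2647, 2635 and 2794 normalized counts in nonconfined cPLA_2_ WT, 2968, 2917 and 2892 in nonconfined cPLA_2_ KO, 5945, 5697 and 5761 in confined cPLA_2_ WT and 8024, 7592 and 7922 in confined cPLA_2_ KO. *Prune1*, a phosphatase, overlaps it on the opposite strand, and as the strand setting of the counting is not given, reads of this pair are uncertain. *Hid1*, which acts in the sorting of secretory granules, had 3.72 to 6.86 in nonconfined libraries, 102, 81.5 and 111 in confined cPLA_2_ WT and 46.4, 19.2 and 50.1 in confined cPLA_2_ KO. *Vps37b*, of the ESCRT-I complex, and *Clba1*, a clathrin-binding protein, had confinement differences of 1.26 and 1.39 in cPLA_2_ WT and 1.14 and 1.14 in cPLA_2_ KO. *Fndc4*, a secreted or membrane-bound fibronectin type III protein, had the largest cPLA_2_ WT difference, at 3.05, 0 and 4.91 in nonconfined cPLA_2_ WT, 3.92, 9.31 and 7.76 in nonconfined cPLA_2_ KO, 175, 143 and 158 in confined cPLA_2_ WT and 19.4, 29.9 and 28.3 in confined cPLA_2_ KO. The remaining members were *Zfp667*, a zinc finger gene, *C77080*, *Mroh2a*, *Gm51803* and the long noncoding RNA *4930431P03Rik*. Of these, *Gm51803* had 8.62 to 13.6 in nonconfined libraries, at most 2.29 in LPS libraries, and 241, 171 and 211 after confinement of cPLA_2_ WT cells against 83.1, 78.9 and 109 after that of cPLA_2_ KO cells.

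**Figure D2:**
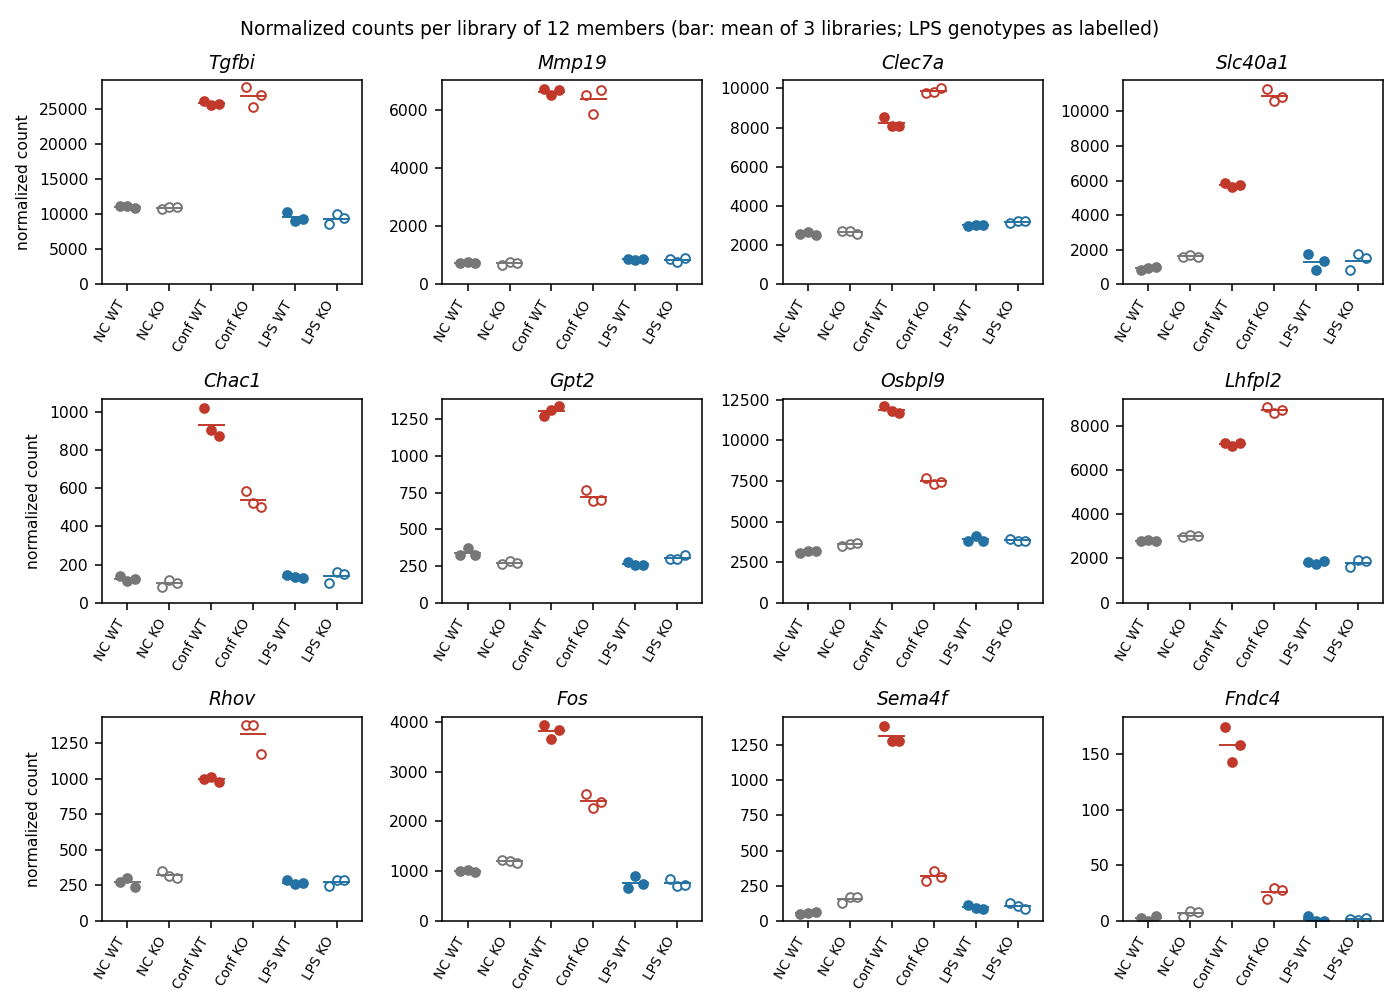
Normalized counts (vertical axis, linear from 0 and scaled for each gene) of 12 members in each of the 18 libraries, with 1 point per library (grey nonconfined or NC, red confined, blue LPS; filled cPLA_2_ WT and open cPLA_2_ KO as labelled) and a bar at the group mean. Confined libraries lie above nonconfined and LPS libraries, and the confined genotypes are far apart for *Sema4f* (1279 to 1382 against 286 to 358).

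Comparing cPLA_2_ KO with cPLA_2_ WT within a treatment was not part of the rule, although in nonconfined and confined cells it used the same libraries. All 46 members were among the 17875 genes tested, and calls were made with limma at an adjusted p below 0.05 and an absolute log2 fold change above 1. In nonconfined cells, 1 member was higher in cPLA_2_ KO, against 0.85% of the genes tested, and 0 were lower, against 0.302%; 9 members had an unadjusted p below 0.05 by limma (22.4% of the genes tested did), and edgeR and DESeq2 also called 0 lower. The higher member was *Sema4f*, with a log2 fold change of 1.40 (SE 0.16, limma adjusted p = 1.37e-05, higher in 3 of 3 libraries). By adjusted p alone, which called 4.78% of the genes tested higher and 4.11% lower, *Slc40a1* (0.80, SE 0.21, limma adjusted p = 0.023) and *Osbpl9* (0.20, SE 0.04, limma adjusted p = 0.00549) were higher too and *Gpt2* was lower (-0.32, SE 0.08, limma adjusted p = 0.0154). The *Slc40a1* call was lost when any of 5 of the 6 nonconfined libraries was left out, with a limma adjusted p of up to 0.0918, and that of *Gpt2* without nonconfined cPLA_2_ WT replicate 2, without nonconfined cPLA_2_ KO replicate 1 and with only the compared groups in the fit (limma adjusted p of up to 0.0984).

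In confined cells, 6 members were lower in cPLA_2_ KO (13% of the 46, against 7.31% of the genes tested) and 0 were higher (against 2.79%). Nothing is read from this count against the share, because 4 of the 6 (*Kcnab3*, *Fndc4*, *Tgm3* and *Hid1*) reached the minimum mean of 50 normalized counts through confined cPLA_2_ WT alone, so that the choice of members favoured a lower value in confined cPLA_2_ KO. A total of 25 members had an unadjusted p below 0.05 by limma, as did 46.2% of the genes tested, and edgeR and DESeq2 each called 1 higher, *Dusp13*, whose 98.2, 106 and 120.3 normalized counts in confined cPLA_2_ KO lay above the 47.3, 40.3 and 45 in confined cPLA_2_ WT (log2 fold change 1.27, SE 0.51). It reached the minimum through confined cPLA_2_ KO alone, so the same holds for it in the other direction; in all, 6 members reached it only through confined cPLA_2_ WT and 3 only through confined cPLA_2_ KO. For *Kcnab3*, *Fndc4*, *Tgm3* and *Hid1* the log2 fold changes are given as a description with no test, at -2.62 (SE 0.74), -2.59 (SE 0.68), -2.19 (SE 0.73) and -1.43 (SE 0.52) in this order. The other members lower by the call were *Sema4f* and *Gm51803*, both above the minimum in confined cells of either genotype. *Sema4f* had -2.05 (SE 0.16, limma adjusted p = 1.09e-09), the reverse of its order in nonconfined cells. *Gm51803* had -1.19 (SE 0.42, limma adjusted p = 0.0278). *Gm51803*, *Tgm3* and *Hid1* lost the call when confined cPLA_2_ WT replicate 1 or replicate 3 was left out, which brought the count to 3. Each of them also lost it without 1 or 2 of the confined cPLA_2_ KO libraries, *Hid1* also without confined cPLA_2_ WT replicate 2, *Gm51803* and *Tgm3* with a pseudocount of 0.5, and *Gm51803* and *Hid1* with no filter on low values, with a limma adjusted p of up to 0.0987 for *Gm51803*.

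Smaller genotype differences in confined cells passed the adjusted p but not the fold limit. By adjusted p alone 12 members were lower and 9 higher, where 20.6% and 18.8% of the genes tested were, and the 4 members named above are among the 12. Among the lower ones, *Gpt2* had a log2 fold change of -0.86 (SE 0.08, limma adjusted p = 1.41e-08), *Chac1* -0.80 (SE 0.15, limma adjusted p = 0.000243), *Fos* -0.66 (SE 0.09, limma adjusted p = 2.10e-06) and *Osbpl9* -0.66 (SE 0.04, limma adjusted p = 2.71e-11). Among the higher ones, *Slc40a1* had 0.92 (SE 0.21, limma adjusted p = 0.00151), *Angptl4* 0.87 (SE 0.23, limma adjusted p = 0.0054), *Mindy1* 0.44 (SE 0.06, limma adjusted p = 2.05e-06), *Rhov* 0.39 (SE 0.10, limma adjusted p = 0.00291), *Slc37a2* 0.38 (SE 0.06, limma adjusted p = 4.57e-05) and *Clec7a* 0.26 (SE 0.04, limma adjusted p = 2.44e-05). The *Mmp19* and *Tgfbi* libraries of the genotypes overlapped, with log2 fold changes of -0.06 (SE 0.06, limma adjusted p = 0.485) and 0.05 (SE 0.05, limma adjusted p = 0.467). The median genotype log2 fold change in confined cells was -0.05 over the members and 0.04 over all genes tested.

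The ratio of the cPLA_2_ KO to the cPLA_2_ WT confinement difference gives the same values in another form, with no test. It was lowest for *Sema4f* (0.23), *Fndc4* (0.31), *Tgm3* (0.36), *Kcnab3* (0.41), *Fos* (0.52) and *Osbpl9* (0.55), and highest for *Akap6* (1.57), *Dixdc1* (1.48), *Angptl4* (1.45), *Slc37a2* (1.34), *Klrg2* (1.29) and *Mindy1* (1.28). For 6 members the cPLA_2_ WT difference exceeded the other by more than 1, and for 0 members did the cPLA_2_ KO difference do so, a count that the minimum level favoured as above. The 403 other genes with both confinement differences above 1, which the LPS limit left out, had median differences of 2.60 (cPLA_2_ WT) and 1.62 (cPLA_2_ KO) and an LPS median of 2.23. In 327 of them the difference was larger in cPLA_2_ WT and in 76 in cPLA_2_ KO; in confined cells 172 of the 403 (42.7%) were lower in cPLA_2_ KO and 8 (1.99%) were higher by the limma call. The members and these 403 genes were separated by measured values, so their shares are given side by side with no test.

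After LPS, the member differences from nonconfined cells ranged from -2.56 to 0.30 with a median of -0.25. They were below 0 for 32 members, below -0.3 for 21 and below -1 for 4, namely *Gm51803* (-2.56), *Dixdc1* (-1.15), *Fndc4* (-1.05) and *Sh2d4b* (-1.04). The LPS and nonconfined libraries overlapped for 34 members. All LPS libraries lay below all nonconfined ones for 9 (*Gm51803*, *Fos*, *Tgfbi*, *Lhfpl2*, *Sh2d4b*, *C77080*, *Vps37b*, *Nt5e* and *Slc37a2*) and above them for 3 (*Mmp19*, *Osbpl9* and *Clec7a*). The LPS limit of the rule favours the lower side. The share over all genes is not given here, so nothing is read from these counts. Between libraries labelled LPS cPLA_2_ KO and LPS cPLA_2_ WT, a contrast the rule did not use, limma called 0 of 46 members higher and 0 lower, against 0% of the genes tested in each direction. At an unadjusted p below 0.05 there were 8 members by limma (4.98% of the genes tested), 4 by edgeR and 5 by DESeq2 (812 and 831 of the 17875 genes), and the lowest limma adjusted p was 0.862. This contrast carries the doubt about the LPS labels given above.

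Some members sit close to the limits of the rule. For the cPLA_2_ WT difference of 1, *Mroh2a* (1.00), *Slc37a2* (1.05), *Prune1* (1.05) and *C77080* (1.06) were just inside and *Slc48a1* (0.99), *Sh3bgrl2* (0.98), *Pkd1l2* (0.98) and *Tacc2* (0.97) just outside. For the cPLA_2_ KO difference, *Fos* (1.00), *Pde4d* (1.01), *Sema4f* (1.04) and *Osbpl9* (1.06) were inside and *Cars* (0.97), *Adssl1* (0.94), *Map7* (0.94) and *Cnnm2* (0.92) outside. Around the LPS limit of 0.3, the members *Mroh2a* (0.30), *Oplah* (0.29), *Chac1* (0.28) and *Clec7a* (0.24) had the highest differences, and *Cadm4* (0.32), *Fam181b* (0.32), *Rarres1* (0.33) and *Tinagl1* (0.34) missed it. Around the mean of 50 normalized counts, *Osbp2* (60.8), *4930431P03Rik* (65.2) and *Serpinb12* (71.1) were inside and *Bdkrb2* (46.5), *Pdk4* (45.5), *Arhgef10* (44.8) and *Rptoros* (43) outside. *Ccr7*, the chemokine receptor that leads DCs to lymph nodes, is not a member, with a confinement difference of 1.05 in cPLA_2_ WT but -0.88 in cPLA_2_ KO and an LPS difference of 1.66.

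Of the 46 members, 8 are on a list of a known programme, with 1 or 2 on a list. The share of all eligible genes on these lists is not given here, so nothing is read from this count. Besides those named above, the list of integrated stress response genes gave *Chac1* (25 eligible, 8 with both differences above 1), that of cAMP and CREB targets *Pde4d* (20 and 10), that of YAP and TEAD targets *Nt5e* (17 and 5), that of matrix, adhesion and proteolysis genes *Mmp19* and *Tgfbi* (28 and 7), and that of LXR targets and lipid handling *Angptl4* (26 and 3). Of 22 eligible genes on the list of NRF2 targets, 13 had both confinement differences above 1 but 0 were members. All 13 had LPS differences of at least 0.3. The 24 genes of NF-κB feedback included 6 with both differences above 1 and the 26 of the interferon response 0, and neither list had a member.

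Markers of other cell types also differed between the groups, although by the study's methods the semiadherent cells were kept and granulocytes, which do not adhere, were removed during culture. Their part in the member values was not tested; 0 members are on any of the 9 marker lists. The 12 DC markers, all found and led by *Cd74*, summed to 488928 to 515318 normalized counts in nonconfined cPLA_2_ WT, 583288 to 619925 in nonconfined cPLA_2_ KO, 439357 to 470127 in confined cPLA_2_ WT, 421845 to 437438 in confined cPLA_2_ KO and 630817 to 745644 in LPS libraries. The 10 neutrophil markers, led by *S100a9*, gave 239174 to 244267, 333024 to 370358, 144998 to 154396, 330984 to 346858 and 277078 to 312719 in the same order. Of 10 eosinophil markers, 8 were in the table, led by *Prg2*, with 29428 to 29818, 67040 to 71342, 7365 to 7949, 16824 to 17837 and 24260 to 41653. Both sums were higher in cPLA_2_ KO than in cPLA_2_ WT libraries before and after confinement. By limma adjusted p, 8 of 10 neutrophil markers were higher in nonconfined and 10 in confined cPLA_2_ KO cells and 0 lower, and 6 of 8 eosinophil markers were higher in each state. *Il5ra* did not pass in nonconfined cells (limma adjusted p = 0.0768). *Siglecf* was lower in cPLA_2_ KO in both states (means of 1402 and 943 in nonconfined, 1447 and 1103 in confined cells), and *Ccr3* was higher in nonconfined and lower in confined cPLA_2_ KO (85.4 and 229, then 189.7 and 61.3). The 10 mast cell and basophil markers, led by *Hdc*, summed to 10619 to 10766, 15383 to 15854, 16371 to 17022, 8814 to 9125 and 19559 to 22051. *Hdc* alone set the order of the confined groups, with means of 735, 1040, 12369.5 and 1458 in the first 4 groups. Without it the sums were 9889 to 10022, 14311 to 14873, 4303 to 4469, 7377 to 7683 and 9174 to 10445. The 12 macrophage markers, led by *Csf1r* and with *Cd163* and *Vsig4* under 10 in every library, summed to 65472 to 68418, 72808 to 77390, 65831 to 68132, 71426 to 78374 and 62769 to 76629, and without *Csf1r* to 29444 to 30430, 36083 to 37600, 30229 to 31541, 34577 to 37651 and 40147 to 51614. T or NK cell markers (7 of 8 in the table, led by *Cd3g*, with *Klrb1c* and *Ncr1* under 10) summed to 2455 to 3184 in nonconfined, 700 to 1250 in confined and 431 to 532 in LPS libraries. Most of this was *Cd3g*, without which the sums were 158 to 217 in nonconfined, 60 to 131 in confined and 69 to 97 in LPS libraries. Stromal and endothelial markers (7 of 7, led by *Pecam1*) gave 1676 to 2120 over all libraries, but without *Pecam1* 228 to 293 in nonconfined, 217 to 379 in confined and 632 to 886 in LPS libraries.

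On build GRCm39, *Mmp19* lies at chr10:128626778-128636696 (9 exons, plus strand), *Tgfbi* at chr13:56757371-56787375 (17 exons, plus), *Slc40a1* at chr1:45947230-45965684 (8 exons, minus), *Sema4f* at chr6:82888867-82916750 (14 exons, minus) and *Fndc4* at chr5:31449586-31453279 (7 exons, minus). Members lay on all autosomes except chromosomes 18 and 19, and 3 pairs were near each other. *Chac1* and *Rhov* are 80012 bp apart on chromosome 2, on opposite strands. Between them, *Spint1* and *Vps18* had confinement differences of -0.11 and 0.20 in cPLA_2_ WT and -0.04 and 0.41 in cPLA_2_ KO, and *Dll4*, a Notch ligand, 6.81 and 1.43 with an LPS difference of 8.62. *Serpinb12* and *Serpinb8* are 632926 bp apart on chromosome 1, and of the eligible serpins between them *Serpinb2* had 3.70 and 0.85 and *Serpinb10* -0.39 and -0.52. Some members overlap a gene on the other strand whose values also differed, such as *Lmtk3* with *Sult2b1* (4.31 in cPLA_2_ WT and 3.62 in cPLA_2_ KO, LPS 0.60), *Mmp19* with *Tmem198b* (2.41 and 1.09) and *Oplah* with *Smpd5* (1.48 and 0.93). *Gm51803*, whose strand is not known here, overlaps *Cdh23* (1.57 and 0.57). The libraries are strand specific, but since the counting's strand setting is not given here, reads of such pairs cannot be told apart with certainty.

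Promoters of 35 of the 46 members were found by symbol in a RefSeq table of 300 bases per gene (250 before and 50 after the start, build GRCm38.p6), and short motifs were searched on both strands. The AP-1 site TGANTCA was in 5 member promoters (14.3%; 5.23% of 9559 eligible promoters and 7.93% of all 27025), the heat shock element GAANNTTC in 6 (17.1%; 5.57% and 7.95%) and the ATF4 and CHOP site TGATGNAAN in 2 (5.71%; 2.28% and 4.04%). The CRE core TGACGT was in 3 (8.57%; 12% and 7.64%) and the full CRE TGACGTCA, which contains it, in 1 (2.86%; 3.27% and 1.88%). The NF-κB core GGGNNTTCC was in 1 (2.86%; 7.4% and 5.72%) and the GC box GGGCGG in 17 (48.6%; 64.3% and 35.9%). The other motifs searched were the antioxidant response element core TGACNNNGC in 2 (5.71%; 15.1% and 12.5%), the E-box CACGTG in 1 (2.86%; 10.4% and 7.24%), the hypoxia response core ACGTG, which the E-box contains, in 5 (14.3%; 26% and 19.7%), the ETS core CCGGAAGT in 0 (0%; 8.79% and 4%), the CCAAT box in 12 (34.3%; 39.2% and 37.9%), the interferon-stimulated element core GAAANNGAA in 3 (8.57%; 7.56% and 8.57%) and the TEAD site GGAATG in 4 (11.4%; 11.2% and 14.6%). With 35 promoters, 1 promoter is 2.86%, and a match is a description of letters, not of a bound site. Shown are 5 promoters 5′ to 3′ on the strand of the gene with the motif in capitals: the ATF4 and CHOP site in *Chac1* (chr2:119350992-119351291, plus strand), AP-1 in *Serpinb8* (chr1:107589756-107590055, plus strand) and *Slc37a2* (chr9:37255689-37255988, minus strand), the CRE core in *Fos* (chr12:85473640-85473939, plus strand) and the full CRE in *Osbpl9* (chr4:109202223-109202522, minus strand). They were picked because each carries a motif of a factor named above in a member whose nonconfined and confined values are given for each library.
Chac1: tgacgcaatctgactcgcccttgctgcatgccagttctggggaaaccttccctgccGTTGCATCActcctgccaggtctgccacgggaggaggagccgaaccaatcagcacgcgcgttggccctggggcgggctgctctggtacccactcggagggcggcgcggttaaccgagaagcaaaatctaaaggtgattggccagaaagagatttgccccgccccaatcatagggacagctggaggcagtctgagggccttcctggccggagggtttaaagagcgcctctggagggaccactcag
Serpinb8: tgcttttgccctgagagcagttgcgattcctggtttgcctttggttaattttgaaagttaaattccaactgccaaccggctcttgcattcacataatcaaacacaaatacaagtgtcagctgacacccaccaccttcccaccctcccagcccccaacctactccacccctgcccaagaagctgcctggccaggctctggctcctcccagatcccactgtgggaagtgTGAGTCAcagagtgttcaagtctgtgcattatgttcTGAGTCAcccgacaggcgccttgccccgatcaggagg
Slc37a2: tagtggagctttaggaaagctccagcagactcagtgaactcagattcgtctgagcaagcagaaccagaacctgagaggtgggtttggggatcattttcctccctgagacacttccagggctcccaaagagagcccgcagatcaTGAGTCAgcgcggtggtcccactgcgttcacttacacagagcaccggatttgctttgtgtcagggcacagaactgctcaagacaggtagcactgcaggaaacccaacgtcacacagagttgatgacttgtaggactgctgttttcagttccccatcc
Fos: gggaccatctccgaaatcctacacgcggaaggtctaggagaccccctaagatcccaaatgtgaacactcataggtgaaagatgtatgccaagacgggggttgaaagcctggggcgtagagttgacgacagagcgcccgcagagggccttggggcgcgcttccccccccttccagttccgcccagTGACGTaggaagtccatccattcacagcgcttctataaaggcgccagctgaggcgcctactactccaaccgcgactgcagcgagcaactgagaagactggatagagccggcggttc
Osbpl9: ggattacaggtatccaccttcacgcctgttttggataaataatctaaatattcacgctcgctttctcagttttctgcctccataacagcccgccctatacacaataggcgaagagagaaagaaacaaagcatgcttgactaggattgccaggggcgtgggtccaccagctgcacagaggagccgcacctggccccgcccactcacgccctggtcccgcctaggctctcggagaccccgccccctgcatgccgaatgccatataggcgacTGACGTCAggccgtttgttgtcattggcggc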

How the data were processed

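Messenger RNA was sequenced from 18 libraries of mouse bone marrow-derived DCs in 6 groups of 3, prepared with strand-specific TruSeq and Illumina kits; which library had which kit is not given here. The submitters' processing notes name STAR 2.7.5a, featureCounts 1.5.0, DESeq2 (version not given), R 3.5.3 and the mm39 (GRCm39) build. The values are a signal deposited by the authors: gene counts divided by size factors, called normalized counts here. Whole reads could be recovered from 100% of values within 0.001 of a read, 33027230 to 61300021 per library. On these reads edgeR called 145 genes higher and 38 lower in nonconfined, 423 and 1319 in confined and 0 and 0 in LPS cells. Members and gene lists were chosen with earlier results of these data known, and gene families were drawn up after the members were known.

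The 17875 genes that reached 10 normalized counts in 3 or more libraries were compared on log2(normalized count + 1) with limma 3.58.1 (R 4.3.3; trended empirical Bayes, 1 mean for each of the 6 groups), with Benjamini-Hochberg adjustment over all of them, and calls needed an adjusted p below 0.05 and an absolute log2 fold change above 1, or the adjusted p alone for a single gene. Fold changes on this scale understate those of low genes. Alternatives were pseudocounts of 0.5 and 5, scaling to the same total or by TMM, no filter or a filter of 100, edgeR 4.0.16 and DESeq2 1.42.0 on the recovered reads, only the compared groups, the replicate number as a block, other calls, other limits of the rule, and the omission of every single library. The fit was tested on simulated data.

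A rule named 29 members: the 12 with the largest smaller confinement difference, the 12 most abundant in confined cells, the 6 lowest after LPS, up to 4 called per direction in each genotype contrast, the 6 highest and lowest ratios of the genotypes' differences, and those on a gene list; the 4 genes nearest each limit on either side were also given, with *Pla2g4a* and *Ccr7*. Some genes and marker lists are not reported here. Other members and the relatives outside the lists were named for their roles after their values were seen. Group means for the minimum level were taken over normalized counts. Of 11596 eligible symbols found once in the table and in the GENCODE annotation, 11595 overlapped in position. Promoters were matched by symbol only.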

Additional observations from a re-analysis of the deposited data

How the results depend on the processing

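Each choice was changed alone. The 46 members became 73 at a minimum group mean of 10, 30 at 200, 25 with an absolute LPS difference under 0.3, and 449 with no LPS limit, a setting added after seeing the data. With the LPS limit met in each labelled genotype, 39 were kept, without *Mroh2a*, *Slc40a1*, *Blk*, *Oplah*, *Chac1*, *Osbpl9* and *Sema4f*. The count was 45 to 46 with other pseudocounts, 53 with TMM scaling (45 shared) and 68 with libraries scaled to the same total (33 shared). The last scaling moved the median of all genes by -0.22 for the cPLA_2_ WT confinement difference, -0.04 for the cPLA_2_ KO one and -0.50 for LPS, and 13 of the 46 members were lost with it. It also moved the median confined genotype log2 fold change of all genes from 0.04 to 0.19 and the calls among all genes from 498 higher and 1307 lower to 788 and 1107. Leaving out each library in turn gave 43 to 53 members; 33 of the 46 were kept each time and 13 were lost at least once. Taking the group mean on the log2 scale, added after seeing the data, kept all 46.

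In nonconfined cells, the 1 member higher in cPLA_2_ KO became 3 by adjusted p alone, and the 0 lower became 1. By the call in the study's methods (a fold of 1.5 at an unadjusted p of 0.05), 4 were higher. This is named the study's call below. For confined against nonconfined cells the study also gives other limits, the same as those of the main call here. In confined cells, the 0 higher became 1 (*Dusp13*) with a pseudocount of 5, with edgeR, with DESeq2 and with only the compared groups, 4 with the same total (*Slc40a1*, *Angptl4*, *Dusp13* and *4930431P03Rik*), 9 by adjusted p alone and 4 by the study's call; *Dusp13* and *4930431P03Rik* reached the minimum level through confined cPLA_2_ KO alone. Leaving out a library gave 0 to 1, and 1 without LPS cPLA_2_ WT replicate 1, LPS cPLA_2_ KO replicate 2 or replicate 3. The 6 lower became 4 with a pseudocount of 0.5 or no filter, 3 with a filter of 100, under which fewer genes were tested, 12 by adjusted p alone and 10 by the study's call. Leaving out a library gave 3 to 6, and 3 without confined cPLA_2_ WT replicate 1 or replicate 3. In LPS cells the study's call gave 3 higher and 2 lower in place of 0 and 0. The share of all genes tested that passed the study's call is not given here, so nothing is read from its counts in any of the 3 contrasts. With the replicate block the counts were 1 and 0 in nonconfined, 0 and 6 in confined and 0 and 0 in LPS cells, so it moved no count. Whether replicate numbers pair the libraries is not known. Correlations between genotypes for replicates 1 to 3 were 0.338, 0.208 and 0.0402 in confined cells. They were at most 0.0412 in nonconfined and -0.00489 in LPS cells. Between nonconfined and confined cells they were 0.183, 0.106 and -0.0638 in cPLA_2_ WT and at most 0.0283 in cPLA_2_ KO. The cause of the changes in the counts was otherwise not tested. Low members such as *Fndc4*, *Tgm3* and *Hid1* rest on few reads in all but the confined cPLA_2_ WT libraries, which limits the precision of their differences.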

Other observations

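Among the libraries labelled LPS, those in which the Y-linked *Ddx3y* was near 0 held the lowest values of 8 members and the highest of 6, and neither for the other 32. The share over all genes is not given here, so nothing is read from these counts. *Ddx3y* had 1271, 0 and 662 normalized counts in the libraries labelled cPLA_2_ WT and 2.12, 1476 and 783 in those labelled cPLA_2_ KO. *Slc40a1* had 1772, 812 and 1331 and then 829, 1748 and 1503 in the same libraries, and *Cbr3* had 329.5, 152 and 266 and then 133, 429 and 268. The libraries labelled cPLA_2_ WT 2 and cPLA_2_ KO 1 had the lowest values of both, and also of *Tgfbi* (9064 and 8642, with a highest value of 10392) and *Mindy1* (2720.3 and 2965, with a highest of 3306), over a narrower range. The same libraries had the highest values of *Osbpl9* (4112 and 3936, with a lowest value of 3774), *Fos* (896 and 849.6, lowest 661), *Prune1* (512 and 579, lowest 429.6) and *Oplah* (98.9 and 97.6, lowest 58). The sums of eosinophil markers were lowest in these libraries too, at 24435 and 24260 against 32796 to 41653 in the other LPS libraries. These genes were picked after their values were seen, and the cause was not tested.

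A further 10 entries without a gene symbol met the rest of the rule. On build mm39, an interval on chromosome 11 (46373128 to 46374149) inside *Havcr2*, the gene of TIM-3, had confinement differences of 3.24 (cPLA_2_ WT) and 2.28 (cPLA_2_ KO) and an LPS difference of -0.14, with group means of 35.5 and 71.7 normalized counts in nonconfined and 339 and 352 in confined cells. An interval on the same chromosome (75063301 to 75068459) that covers the microRNA genes *Mir212* and *Mir132* had 2.73, 1.86 and 0.02; it also overlaps *1700016P03Rik*, *Ovca2* and *Dph1*, so the values are not those of the microRNAs alone. On chromosome 12, an interval (116066412 to 116102269) over *Vipr2*, a receptor of vasoactive intestinal peptide, had 1.45, 1.98 and 0.23, with means of 332 and 468 in nonconfined and 911 and 1845 in confined cells. An interval on chromosome 5 (92275154 to 92277743) had 1.96, 2.40 and 0.15.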
